A study of Mus musculus with 16 samples.

Results

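CTCF was mapped by chromatin immunoprecipitation and sequencing in mouse ES cells grown in 2i medium, ES cells grown in serum, and neural progenitor cells (NPC), and 8832 CTCF regions carried a peak in the ES 2i list and in neither other list. These 2i-only regions were found by merging the 3 deposited peak lists wherever peaks overlapped by at least 1 bp, and they made up 14.6% of the 60688 merged regions and 15.8% of the 55976 regions with an ES 2i peak. Each condition had 1 CTCF library, so nothing about the peaks could be tested against replicate error, and members were chosen by the same peak calls whose fold enrichment and q-values are described below.

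The ES 2i cells were male V6.5 cells of the 129SvJae x C57BL/6 background, grown without serum in LIF with CHIR99021, an inhibitor of the kinase GSK3, and PD0325901, an inhibitor of the kinase MEK. The ES serum cells were the same line in medium with serum and LIF, and both ES cultures were moved from a feeder layer of inactivated fibroblasts onto gelatin before fixation. The NPC were isolated from whole brains of P1 Sox2-eGFP mice of the same cross, grown as neurospheres with EGF and FGF, and plated on coated dishes before fixation. Contacts in the same 3 untreated conditions were measured by chromosome conformation capture carbon copy (5C), a ligation assay read out with primers across chosen loci, with 2 libraries a condition. Libraries from siRNA-treated NPC were not used here.

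CTCF is a zinc-finger protein that binds a long DNA motif and, with the cohesin ring, holds chromatin loops and marks the borders of contact domains. Many of its sites are occupied in most cell types, while weaker sites vary more between cell types. In 2i medium mouse ES cells take on a uniform naive state with low DNA methylation, and binding of CTCF at some of its sites is known to be blocked by methylation of the DNA.

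The 2i-only regions lay at the weak end of the ES 2i list. The peak caller's fold enrichment, a ratio of the authors' own peak calls, had a median of 9.73 in 2i-only regions, with quartiles of 8.44 and 11.6, a minimum of 3.53 and a maximum of 35.2. In the same ES 2i list the median was 14.4 in the 20068 regions found in both ES lists and 23.0 in the 26435 regions found in all 3 lists. The 641 regions shared by the ES 2i and NPC lists, but missing from the serum list, had a median of 10.8. A fold above 20 was reached by 66 of the 2i-only regions, or 0.747%, and by 62.1% of the regions in all 3 lists. Peaks were also narrower, with a median width of 189 bp in 2i-only regions, against ES 2i peak widths of 258 bp and 329 bp in regions of both ES lists and of all 3 lists.

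When all regions with an ES 2i peak were ranked by fold enrichment and cut into 10 equal parts (deciles), 49.9% of the weakest decile were 2i-only (95% exact binomial interval 48.6 to 51.2%, counting error only). The share was 43.8% in the next decile, 32.6% in the third, 17.7% in the fourth and 8.61% in the fifth. It was 1.04% in the seventh and 0.0179%, a single region, in the strongest decile. The weakest 3 deciles held 7070 of the 8832 regions, or 80.0%. In the ES serum list, serum-only regions were 26.6% of the weakest decile, 1.36% of the fifth and 6.34% of its 50096 regions, and none lay in its strongest 3 deciles.

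**Figure D1:**
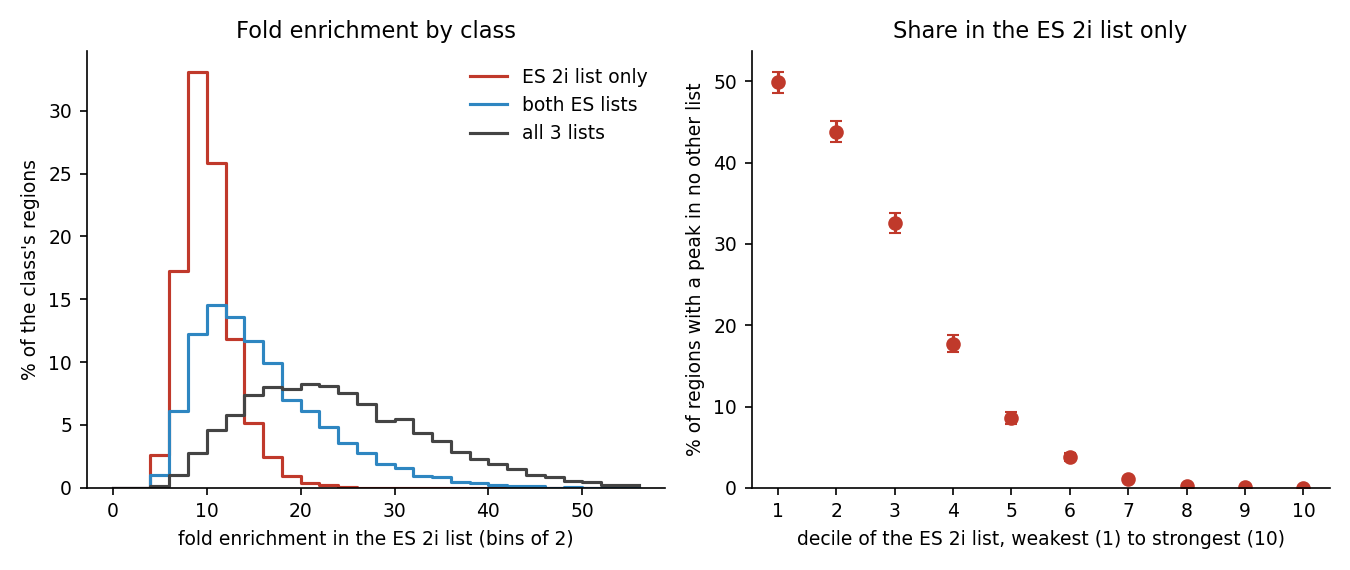
Left, percentage of each class's regions (vertical axis) by fold enrichment in the ES 2i list, in bins of 2 up to 58, for regions in the ES 2i list only, in both ES lists and in all 3 lists. Right, percentage of regions that were 2i-only (points, with 95% exact binomial intervals) in each decile of the ES 2i list, from 49.9% in the weakest to 0.0179% in the strongest.

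The lists differed in length, with 56138 peaks in ES 2i, 50185 in ES serum and 28860 in NPC, and the number of regions in 1 list alone moved with this length. With the ES 2i list cut to its strongest peaks, as many as the serum list holds, 5325 regions were 2i-only and 5108 were serum-only, against 8832 2i-only and 3177 serum-only regions in the full lists. With all 3 lists cut to the length of the NPC list, 2564 regions were 2i-only, 1780 serum-only and 5183 NPC-only, and the 2i-only regions then had a median fold of 20.3. The excess of 2i-only over serum-only regions in the full lists and the length of the ES 2i list cannot be told apart.

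Absence from the serum list went along with absence from the NPC list. Of the 9473 ES 2i regions without a serum peak, 641, or 6.77%, had an NPC peak, against 26435, or 56.8%, of the 46503 ES 2i regions with a serum peak. Within the weakest 8 deciles of ES 2i strength, taken singly, an NPC peak was present in 4.61 to 21.1% of regions without a serum peak and in 18.6 to 72.6% of regions with one. The strongest 2 deciles held 5 and 2 regions without a serum peak, too few for a share. In the weakest decile the 2 shares were 4.61% and 18.6%.

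The strongest 2i-only region lay at chr4:43743812-43744127 (mm9, as for all coordinates here) with a fold of 35.2, above 92.6% of all ES 2i regions. Its nearest peak in the serum list was 5.85 kb away. The next was chr15:87604435-87604721 with a fold of 32.7, and it stood apart from CTCF peaks of every other class, with its nearest serum peak 148 kb away. The third, chr2:163423503-163423782, reached 30.6 and had a serum peak 1.25 kb away. The remaining 2 of the strongest 5 were chr5:130952674-130952948 with a fold of 29.0, whose nearest region of any class was another 2i-only region at 9.79 kb, and chr16:37929755-37930026 with a fold of 28.0. Of the 8832 members, 19 exceeded the median fold of the regions in all 3 lists.

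At the other edge, the members just inside the authors' significance threshold were chr11:108781888-108782100 and chr4:138590550-138590767, both with a fold of 5.27 and a −log10 q of 6.04. They were followed by chr18:69951727-69951895, with a fold of 5.24, and by chr11:94665260-94665534 and chr13:54689168-54689323, with a fold of 4.58 each. The first of these had an NPC peak only 0.252 kb away. Fold values came in steps: the 8832 regions held 1247 distinct values, and the 10 most common values accounted for 24.2% of them, the commonest being 9.50, with 305 regions.

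The overlap rule itself decided few members. The nearest peak of another list began 2 bp away in the closest case and within 500 bp for 366 members, or 4.14%, while the median gap was 9.59 kb. On the shared side, the smallest overlap that made a region shared was 15 bp, and 14 of 47306 overlapping ES 2i peaks did so by 50 bp or less. The nearest peak of another list belonged to ES serum more often than to NPC, in 94.6% of members. These gaps ran between peak edges. The ES serum list held more peaks than the NPC list, 50185 against 28860, and wider ones, with a median of 311 bp against 206 bp. The 94.6% cannot be told apart from these differences between the lists.

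2i-only regions were scattered one by one among shared CTCF regions. The nearest other 2i-only region was a median of 58.8 kb away, while the nearest region of any class was 8.30 kb away. For regions in both ES lists the distance to their own class was 22.1 kb and to any region 7.47 kb, and for regions in all 3 lists 15.3 kb and 6.82 kb. Distances to the same class shrink as a class grows, so they do not compare clustering between classes of different size. Within 10 kb of another 2i-only region lay 1246 members, or 14.1% (95% exact binomial interval 13.4 to 14.9%).

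The class of the nearest ES 2i neighbour depends less on class size. It was another 2i-only region for 17.7% of 2i-only regions (16.9 to 18.5%), for 15.7% of regions in both ES lists (15.2 to 16.3%) and for 14.3% of regions in all 3 lists (13.9 to 14.7%). These intervals cover counting error only, and neighbours share positions. Distance was set beside it among regions nearer in strength, the weakest 3 deciles of the ES 2i list. There 14.0% of 2i-only regions (13.2 to 14.8%) had a 2i-only region within 10 kb, against 13.6% of regions in both ES lists (12.8 to 14.4%) and 9.80% of regions in all 3 lists (8.63 to 11.1%). Strength was not equal even there, with median folds of 9.13, 9.69 and 10.1 in the same order. The intervals of 2i-only regions and of regions in both ES lists overlapped. This split by strength was added after the data were seen.

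**Figure D2:**
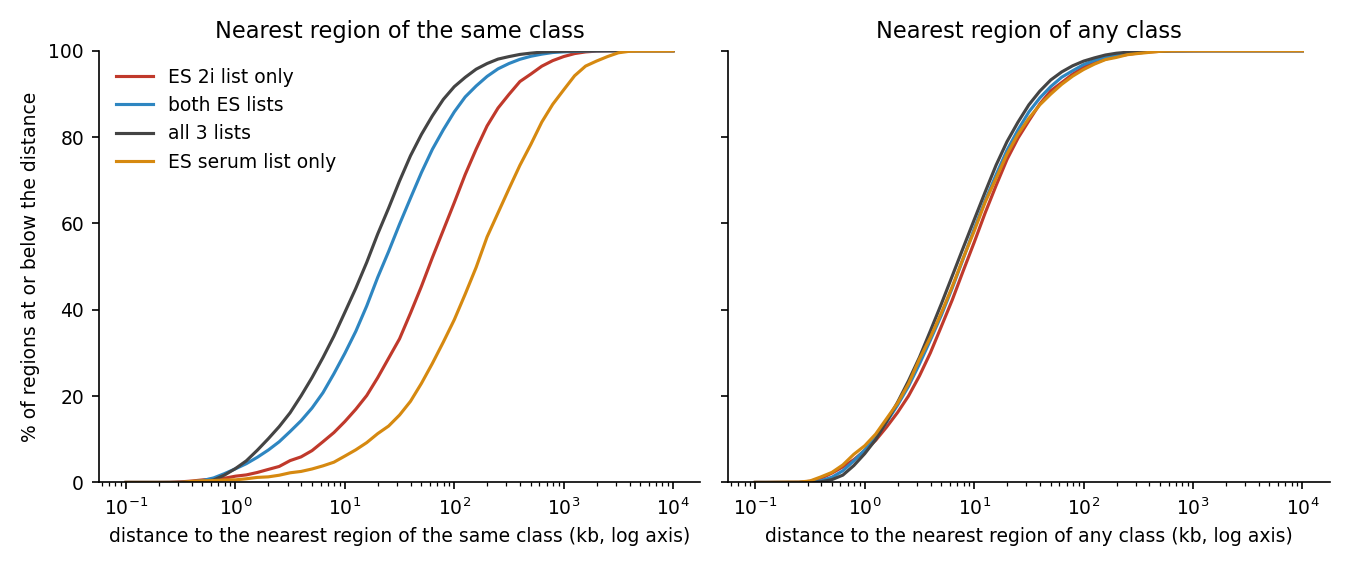
Cumulative percentage of regions (vertical axis) by summit-to-summit distance in kb (log axis) to the nearest region of the same class, left, and of any class, right, for 4 classes. The 4 curves run close together at right, with medians between 6.82 and 8.30 kb, and are ordered by class size at left.

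Chains of 2i-only regions no more than 10 kb apart were short. There were 531 pairs, 56 triples and 4 chains of 4, and no longer chain, while 7586 regions stood alone. Regions in both ES lists formed chains of up to 12, and regions in all 3 lists of up to 9. The tightest chain of 4 spanned 9.72 kb at chr8:26852077-26861960, with folds between 6.47 and 10.3 and with 1 region of all 3 lists inside it. A second, at chr9:64125176-64136594, had 3 other regions inside it, and the last of the 3 named, at chr2:75507740-75520378, had none, so there the ES 2i list held 4 peaks in 12.5 kb where neither other list had a call. Folds in that chain were between 5.31 and 14.2.

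The median fold was 9.61 in members within 10 kb of another member and 9.73 in the rest. The 926 members, or 10.5%, with no ES 2i neighbour within 50 kb were matched by 9.30% of regions in both ES lists and 7.87% of regions in all 3 lists.

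2i-only regions lay on every chromosome, in near proportion to the ES 2i list. Leaving out Y, which had 1 of 4, the share of ES 2i regions that were 2i-only was highest on chromosome 13, at 18.7% (17.03 to 20.37%), followed by chromosome 8 at 18.1% (16.8 to 19.5%), chromosome 12 at 17.9% (16.3 to 19.6%) and X at 17.9% (15.9 to 20.0%). It was lowest on chromosome 1, at 13.2% (12.1 to 14.3%), and chromosome 19, at 14.0% (12.3 to 15.8%). The intervals of chromosomes 13, 8, 12 and X lay above the genome-wide 15.8%, and those of 2 chromosomes, 1 and 7, lay below it. They cover counting error only, with 1 library a condition, and make no allowance for the number of chromosomes compared. Density varied more, between 1.55 members per Mb on X and 5.13 on chromosome 11.

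Among the weakest 3 deciles of the ES 2i list, where 42.1% of regions were 2i-only, chromosome 8 was again high, at 48.5% (45.4 to 51.6%), and chromosome 1 again low, at 35.9% (33.0 to 38.8%). The interval of chromosome 13, at 46.2% (42.4 to 50.1%), also lay above the 42.1%, and that of chromosome 19, at 36.7% (32.3 to 41.2%), also below it. X was at 38.0% (33.8 to 42.4%), an interval that includes the 42.1%. Again the intervals cover counting error only. On X 36.4% of ES 2i regions belonged to these weakest deciles, more than on any autosome, where the share was between 28.3 and 32.1%. Chromosome 1 was lowest and chromosome 8 highest when the lists were cut to equal length, at 5.87% and 13.1%. Serum-only regions showed no such low on chromosome 1, where they were 7.64% of serum regions against 6.34% genome-wide, and were 4.51% on chromosome 8.

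**Figure D3:**
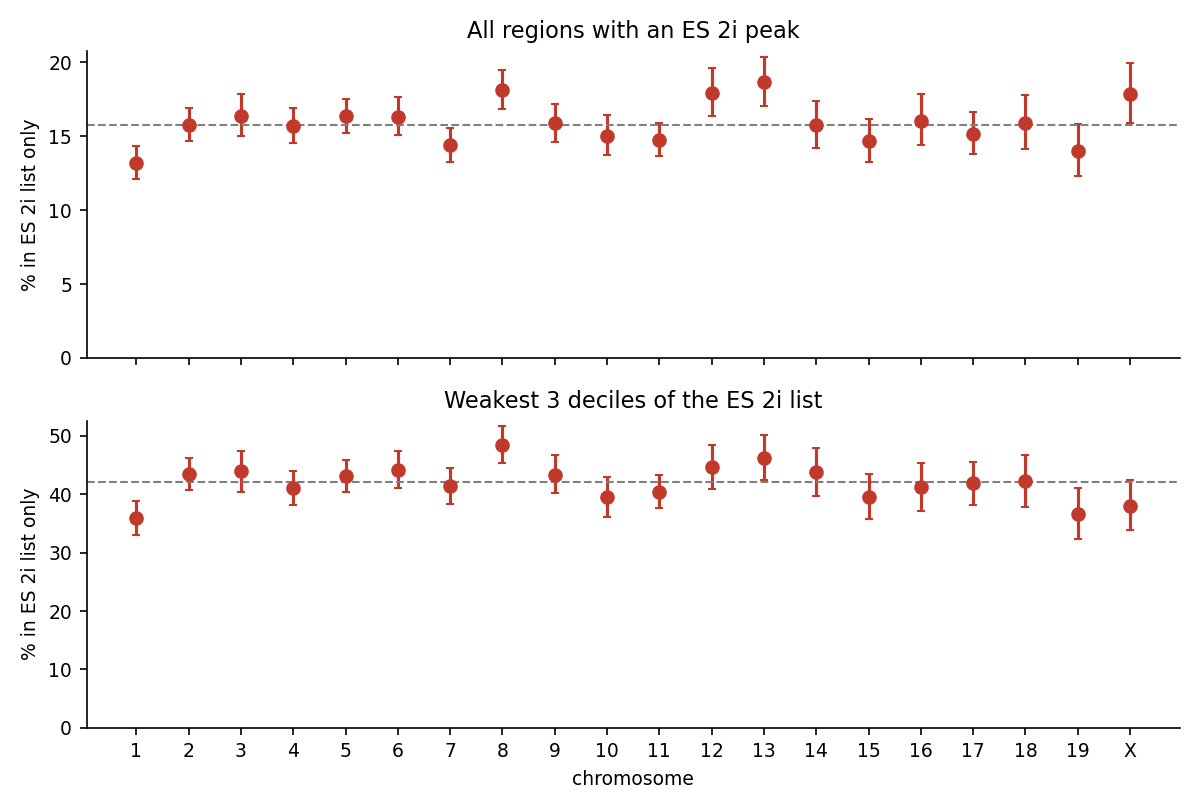
Percentage of ES 2i regions that were 2i-only on each chromosome (points, with 95% exact binomial intervals, counting error only) among all regions with an ES 2i peak, above, and among the weakest 3 deciles of the list, below. Dashed lines mark the shares over the chromosomes shown. Chromosome 1 is low in both panels and chromosome 8 high in both, while X is at 17.9% above and 38.0% below.

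In windows of 1 Mb, 2107 of the 2531 windows with an ES 2i region held at least 1 member, with a median of 2 and a maximum of 20. The 2 windows with 20 were at 126 to 127 Mb of chromosome 4, where 20 of 59 ES 2i regions were 2i-only, and at 31 to 32 Mb of chromosome 5, where 20 of 57 were.

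The 5C loci allowed a look at contacts, a readout that did not enter the choice of members. The 7 loci, named by the authors after Oct4, Nanog, Sox2 and Klf4, transcription factors of pluripotent cells, Nestin, an intermediate filament of neural progenitors, Olig1-Olig2, factors of the oligodendrocyte lineage, and a gene desert, covered 7.23 Mb. They held 58 members among 394 ES 2i regions, or 14.7% (11.4 to 18.6%). Oct4 had 17 of them, Nestin 16, Nanog and Olig1-Olig2 9 each, Klf4 and Sox2 3 each and the gene desert 1. The strongest, chr17:35704833-35705102 in the Oct4 locus, had a fold of 19.3, and the second, chr17:36071283-36071581 in the same locus, 18.3. The only member in the gene desert, chr5:133415658-133415886, was the third, with 18.0 and with its nearest serum peak 28.3 kb away. The strongest members at Nestin, Nanog, Klf4, Sox2 and Olig1-Olig2 had folds of 14.8, 14.4, 12.7, 12.5 and 11.6.

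Contacts were compared as read counts between windows of 16 kb, each set against the trend of count with distance in its library and locus. The libraries held between 11784821 and 26533530 reads, of which 79.3 to 90.0% were used. Replicates were numbered in the labels with no statement of separate cultures, so p-values measure the spread between these libraries only. An edgeR quasi-likelihood test with Benjamini-Hochberg adjustment called 20.5% of all 15190 window pairs different in ES 2i over ES serum and 17% in ES 2i over NPC. Both comparisons use the same ES 2i libraries.

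Window pairs touching a 2i-only region differed about as often as any other pair. In ES 2i over ES serum 675 of 3353 such pairs, or 20.1%, passed an adjusted p of 0.05, 379 higher and 296 lower in ES 2i, against 11.2% higher and 9.30% lower of all pairs. Their median log2 fold change was 0.00, against 0.01 over all pairs. With plain library scaling in place of the distance trend, 503 were higher and 254 lower, 22.6% of these pairs against 23.2% of all pairs, and the median was 0.12, against 0.02 over all pairs. In ES 2i over NPC 555 pairs, or 16.6%, passed, 291 higher and 264 lower, against 8.84% higher and 8.20% lower of all pairs, with a median of −0.04 against −0.02. Plain library scaling gave 431 higher and 293 lower there, 21.6% of these pairs against 23.0% of all pairs, with a median of 0.06 against 0.01. The direction of calls over all pairs was not counted under plain library scaling. Its excess of higher calls in both comparisons therefore has no background share beside it. Counts of calls fell when a library was left out: without ES 2i replicate 1 they were 266 and 281 in the 2 comparisons, without ES serum replicate 1 271 and without ES serum replicate 2 169 in ES 2i over ES serum. The share over all pairs fell with them, and stayed within 1.40 percentage points of the share among pairs touching a 2i-only region.

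Windows whose only CTCF regions were 2i-only ones were examined separately. In ES 2i over ES serum 111 of their 1407 window pairs (7.89%) were called higher and 155 (11.02%) lower. The partner window in these 1407 pairs could hold any CTCF regions or none. Of the 2972 pairs without a CTCF region in either window, 221 (7.44%) were higher and 343 (11.5%) lower. Of the 3765 pairs between windows that both hold regions of other classes only, 555 (14.7%) were higher and 294 (7.81%) lower. The sets of 2972 and 3765 pairs fix the content of both windows, so they are not like for like with the 1407. Over all 15190 pairs the shares were 11.2% higher and 9.30% lower. In ES 2i over NPC the balance of the same 1407 pairs turned, with 152 (10.8%) higher and 111 (7.89%) lower. The pairs without a CTCF region had 185 (6.22%) higher and 276 (9.29%) lower. The pairs with other classes only had 417 (11.1%) higher and 295 (7.84%) lower. Over all pairs 8.84% were higher and 8.20% lower. Per window, the median log2 change of all contacts of a window was above 0 in 6 of 26 windows with 2i-only regions alone, with a median of −0.23, against 15 of 25 windows with 2i-only and other regions, 95 of 191 windows with other CTCF regions and 88 of 186 windows with none. The medians of those 3 kinds were 0.09, −0.01 and −0.02. In ES 2i over NPC the windows with 2i-only regions alone were above 0 in 13 of 26, with a median of 0.00. These are counts without a test; windows of a locus share libraries and contacts. Another window with a member alone, at Oct4, had no pair tested, so the tested windows with 2i-only regions alone were all at other loci. Most windows with 2i-only and other regions were at Oct4 or Nestin. The counts were not split by locus, so kinds of window and of window pair were not separated from differences between loci. Under the other fits at this window size, the number above 0 in ES 2i over ES serum was between 5 and 9 of 26 and the median between −0.27 and −0.08, and plain library scaling gave 9 and −0.08.

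**Figure D4:**
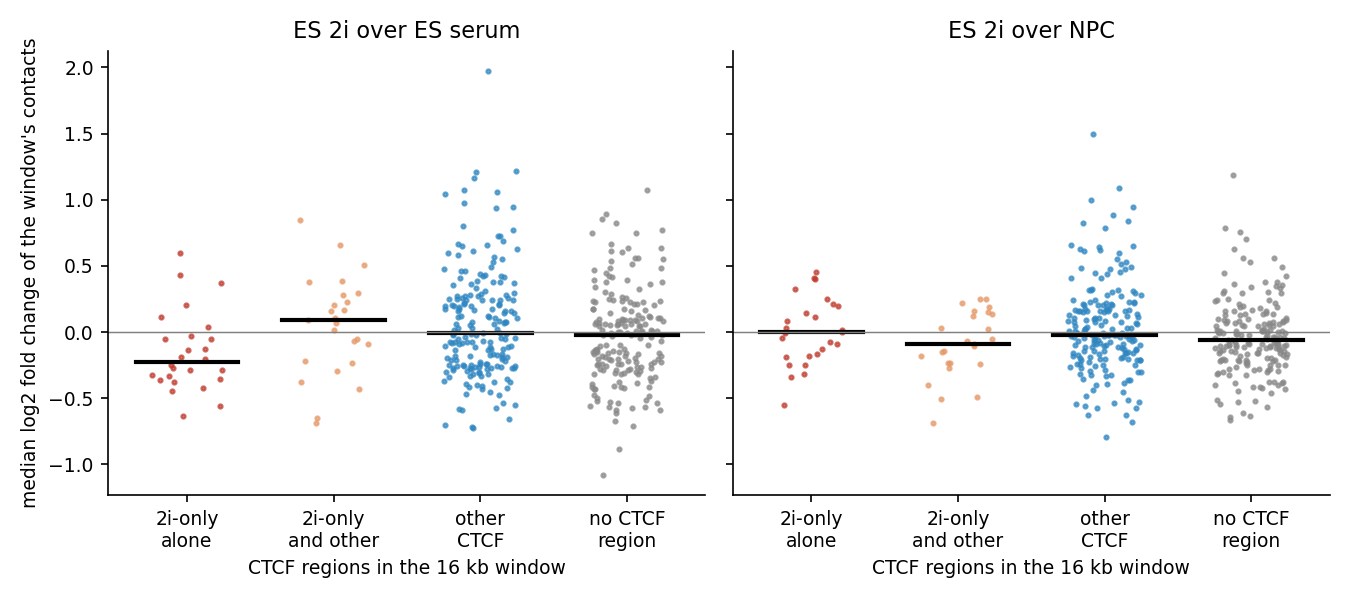
Median log2 fold change of contacts (vertical axis) of each 16 kb window with at least 10 tested pairs (points), by the CTCF regions it holds, in ES 2i over ES serum, left, and ES 2i over NPC, right; black bars are medians. Windows with 2i-only regions alone have a median of −0.23 at left and 0.00 at right.

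Single windows with the same content differed in direction in ES 2i over ES serum, as in the next examples, chosen after their values were seen. The Nestin window at chr3:88021088-88037087, with 1 member at chr3:88024895-88025094 and no other CTCF region, had 1 of 65 contacts higher and 30 lower in ES 2i than in ES serum, and 0 higher and 28 lower in ES 2i than in NPC. The Nanog window at chr6:122701360-122717359, also with 1 member alone, had 17 of 43 contacts higher and 0 lower in ES 2i than in ES serum, and 16 higher and 0 lower in ES 2i than in NPC. At Olig1-Olig2 the window at chr16:90726613-90742612 had 22 of 69 contacts higher and 1 lower in ES 2i than in ES serum, while the window at chr16:90662613-90678612 had 0 higher and 15 lower. Over NPC both of these windows had more higher than lower contacts in ES 2i, 13 higher and 0 lower in the first and 10 higher and 2 lower in the other. Among windows with a member, the largest balance of higher calls was in a mixed window, chr17:35118392-35134391 at Oct4, with 2 members and 1 other region. There 54 of 112 contacts were higher and 0 lower in ES 2i than in ES serum, and 5 higher and 5 lower in ES 2i than in NPC. Over all pairs 11.2% were higher and 9.30% lower in ES 2i than in ES serum. Window medians in that comparison were between −0.63 and 0.60 with 2i-only regions alone and between −0.68 and 0.85 in mixed windows. They were between −0.73 and 1.97 in windows with other CTCF regions and between −1.08 and 1.07 in windows with none.

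Among called pairs touching a 2i-only region, the largest increase in ES 2i over ES serum was between chr17:35726392-35742391, which holds 1 member and 3 other regions, and chr17:36318392-36334391, 592 kb away in the Oct4 locus. It had 89 and 58 reads in ES 2i, against 7 and 9 reads in ES serum, and 24 and 40 in NPC, all from 1 primer pair. Both ES 2i libraries were above both serum libraries. The log2 fold change was 3.92 (SE 0.59, edgeR adjusted p = 0.000615).

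The second window of that pair also had the third largest increase, with the window at chr17:35358392-35374391, which holds 1 member and 5 other regions. This contact had 43 and 11 reads in NPC. Reads were 81 and 40 in ES 2i, against 5 and 12 in ES serum, a log2 fold change of 3.73 whose call was lost without ES 2i replicate 1. The second largest, at Nestin, joined chr3:87413088-87429087, with 1 member alone, to chr3:88277088-88293087, 864 kb away. This contact had 24 and 11 reads in NPC. Over the distance trend it was at 0.78 and 0.73 in ES 2i, 0.08 and 0.03 in ES serum and 0.90 and 0.50 in NPC. It had 22 and 28 reads in ES 2i, against 3 and 1 in ES serum, a log2 fold change of 3.73 whose call was lost without ES 2i replicate 1 or ES serum replicate 2.

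The largest decreases in ES 2i over ES serum all lay in the Oct4 locus and had far more reads. The contact of chr17:35694392-35710391 with chr17:36238392-36254391 had 621 and 2190 reads in ES 2i, against 11751 and 15177 in ES serum, and 1984 and 620 in NPC. The first of these windows holds the strongest member of the 7 loci beside 2 other CTCF regions. Over the distance trend the contact was at 5.62 and 16.8 in ES 2i, 58.1 and 76.2 in ES serum, and 26.1 and 8.17 in NPC. Both ES 2i libraries were below both serum libraries, and the log2 fold change was −2.58 (SE 0.46, edgeR adjusted p = 0.00171), with 98.9% of the reads from 1 of 2 primer pairs.

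The contact of chr17:35406392-35422391, with 2 members and 2 other regions, and chr17:36286392-36302391, with none, had 265 and 456 reads in ES 2i. It had 3246 and 3622 in ES serum, a log2 fold change of −2.44, and 302 and 420 in NPC. The contact of chr17:35518392-35534391 with chr17:35886392-35902391, which holds 1 member and 1 other region, had 110 and 230 reads in ES 2i. It had 1305 and 1300 in ES serum, a log2 fold change of −2.18, and 106 and 121 in NPC. Over the distance trend, the 3 contacts were below both serum libraries in both ES 2i libraries, and in both NPC libraries too. At chr17:35406392-35422391 the values over the trend were 4.99 and 7.02 in ES 2i, 31.3 and 33.8 in ES serum and 5.50 and 8.25 in NPC. At chr17:35518392-35534391 they were 0.62 and 1.10 in ES 2i, 3.95 and 3.86 in ES serum and 1.02 and 1.11 in NPC.

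In ES 2i over NPC the largest increase was a short contact at Olig1-Olig2. The window chr16:91094613-91110612, with 1 member alone at chr16:91107525-91107731, had 88 and 133 reads with chr16:91126613-91142612 in ES 2i, against 1 and 0 reads in NPC, all from 1 primer pair, and 406 and 388 in ES serum. Over the distance trend the ratio of summed reads was 271, with a 95% exact interval for counting error of 48.1 to 10748. The contact was nonetheless sparse for its distance of 32 kb, at 0.080 and 0.099 of the trend in ES 2i.

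The next 2 increases over NPC were at Klf4, both to the window chr4:55667979-55683978, which holds no CTCF region. From chr4:55411979-55427978, with 1 member alone, reads were 77 and 53 in ES 2i, against 4 and 5 in NPC, and 151 and 195 in ES serum, a log2 fold change over NPC of 3.40 (SE 0.58, edgeR adjusted p = 0.00103). From chr4:55267979-55283978, with 1 member alone, reads were 11 and 17 in ES 2i, against 1 and 0 in NPC, and 71 and 94 in ES serum. The ratio of summed reads over the trend was 17.7 (2.92 to 723), and the call of this contact was lost without either ES 2i library or NPC replicate 2. DESeq2 gave the contact a log2 fold change of 4.12 and no adjusted p. Over the distance trend, which allows for the deeper serum libraries, both ES 2i libraries were below both ES serum libraries at Olig1-Olig2 (0.080 and 0.099 in ES 2i, against 0.164 and 0.154 in ES serum) and in the sparser of the Klf4 contacts.

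The largest decreases over NPC centred on the Nestin window at chr3:88021088-88037087 described above. Its contact with chr3:87765088-87781087 had 98 and 147 reads in ES 2i, against 608 and 487 in NPC, and 295 and 295 in ES serum, a log2 fold change over NPC of −2.70 (SE 0.24, edgeR adjusted p = 8.31e-06). Its contact with chr3:87797088-87813087, which holds another member and 2 other regions, had 271 and 290 reads in ES 2i, against 986 and 971 in NPC, a log2 fold change of −2.31. The third, between chr16:90662613-90678612 at Olig1-Olig2 and chr16:91606613-91622612, had 150 and 324 reads in ES 2i, against 809 and 513 in NPC, a log2 fold change of −2.06. In all 3 both ES 2i libraries were below both NPC libraries.

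The authors also deposited a table of 5762 pixels of the 5C maps, each a pair of bins with an interaction score per library and a looping class. Of the 451 pixels in their class for loops of ES 2i alone, 8, or 1.77%, had the summit of a 2i-only region in an anchor bin, against 5.76% of the 3942 looping pixels and 6.37% of the 1820 background pixels in that table. The share was 6.95% of the pixels looping in ES 2i and serum, 4.72% in ES 2i and NPC, 6.39% of constitutive loops, 6.92% of loops of ES serum alone, 5.06% of loops of NPC alone and 16.3% of the 104 pixels looping in serum and NPC. That 16.3% was 17 pixels from 7 bins with a 2i-only summit. In all but 1 of the 17, an anchor bin also held a region of another class. Regions of the other classes were in an anchor bin of 41.7% of the loops of ES 2i alone, 48.0% of all looping pixels and 31.8% of background pixels. In loops of ES 2i alone their share was thus below that of all looping pixels but above background. The share of 2i-only regions was below both. Neighbouring pixels belong to 1 loop and share bins, so these shares carry no interval.

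The 8 pixels came from 5 member bins, with 3 pixels at Oct4, 3 at Olig1-Olig2 and 2 at Sox2. Their median interaction scores, in the authors' unit, were 62.6 and 59.7 in the ES 2i libraries, 11.7 and 9.79 in ES serum and 2.32 and 8.17 in NPC. By bin, 41 of the 57 bins with a 2i-only summit, or 71.9%, anchored a looping pixel of some class, against 65.9% of all 1807 bins. A pixel of the class for ES 2i alone was anchored by 5 of the 57, or 8.77%, against 13.5% of all bins.

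**Figure D5:**
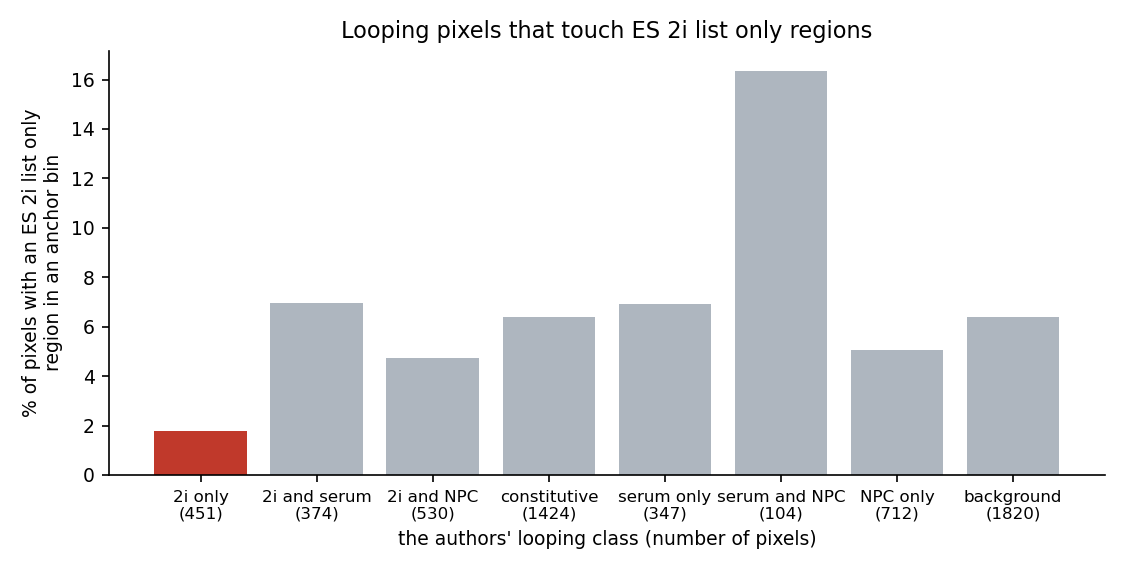
Percentage of pixels in each of the authors' looping classes that had the summit of a 2i-only region in an anchor bin, with the number of pixels below each bar. Loops of ES 2i alone are lowest, at 1.77%, and loops of serum and NPC highest, at 16.3%, which is 17 pixels from 7 bins with a 2i-only summit.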

How the data were processed

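CTCF peaks were called with MACS2 on mm9, and 5C reads aligned with Bowtie, per the submitters' processing notes; the labels call the lists downsampled, and every deposited list ends at a −log10 p just above 8. The deposited peak lists, 1 per condition, give each peak's fold enrichment (a ratio) and −log10 p and q. The deposited 5C table holds read counts per primer pair, and the authors' class table holds interaction scores of unstated scale; its classes were named by their conditions. Per-sample columns left unused numbered 55.

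Peaks were merged at 1 bp of overlap, and spacing was measured between summits (Python 3.11.15, pandas 2.3.3, scipy 1.17.1). Primer-pair counts were summed over 16 kb windows. For each library and locus, a loess of log count (0.5 added, span 0.5) on log distance gave the offset, to which TMM factors were joined. Pairs passing filterByExpr were tested in 1 edgeR 4.0.16 fit of 3 groups of 2 libraries, threshold adjusted p 0.05, in R 4.3.3, with DESeq2 1.42.0 as an alternative. The script was tested on simulated data. Replicates differed beyond sampling noise in each group (chi-square per degree of freedom 16.8 to 19.0).

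Named regions were the 5 strongest members, the 5 of lowest −log10 q, the 3 largest chains and the strongest in the 5C loci. Named window pairs were the 3 highest and the 3 lowest log2 fold changes among called pairs of each comparison. Members, lists and tests were chosen with earlier results of these data known. No genome or annotation of mm9 was used here, so motifs, neighbouring genes and sequences are not analysed here.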

Additional observations from a re-analysis of the deposited data

How the results depend on the processing

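Of 168 values recomputed under alternatives, 143 stayed within set bounds, 18 moved past them and 7 lost a call on a named window pair. Those 7 include the Klf4 pair to which DESeq2 gave no adjusted p. The bounds were direction and side of the threshold for named window pairs, 1.5 times a count, or the interval of a median or share. Direction was checked in named window pairs only, where 0 reversed. The balance of called pairs did turn in places. In 32 kb windows ES 2i over NPC had 217 higher and 259 lower, against 291 and 264 at 16 kb. At 32 kb these calls were 30.9% of such pairs, against 30.4% of all pairs, with median log2 fold changes of −0.06 and −0.03. The direction of calls over all pairs was not counted at 32 kb. Over windows with no other class, ES 2i over ES serum had 111 higher and 155 lower, against 379 and 296. The number of 2i-only regions was 5649 with a −log10 q of at least 15 asked of the ES 2i list alone, 2564 with all lists cut to the shortest and 5325 with the ES 2i list cut to the serum length, an alternative chosen after seeing the data; a stricter list holds fewer peaks by construction. Their median fold was 11.1 with the stricter threshold in all lists and 20.3 with lists cut to the shortest. The share within 10 kb of another was 10.9% with regions up to 1 kb apart merged and 12.5% with the stricter threshold, and it was 7.37% within 5 kb and 45.3% within 50 kb. The chromosomes spanned 5.49 percentage points in their share of 2i-only regions, 7.21 with lists cut to the shortest and 12.6 among the weakest 3 deciles alone, also added after seeing the data. The 675 called window pairs of ES 2i over ES serum were 430 in 32 kb windows, of fewer pairs, and 266 over windows with no other class, while the 555 of ES 2i over NPC were 263 over those windows. Leaving out 1 library gave 169 to 500 and 281 to 475. Same-numbered libraries deviated together with correlations of 0.022 to 0.088, so the numbers did not pair them; with a replicate block 830 and 692 pairs were called, 24.8% and 20.6% of the pairs touching a 2i-only region, against 25.1% and 21.3% of all pairs. The planned motif alternatives were not run, since no mm9 genome was used here. With 1 ChIP library a condition, no peak result has a replicate error, and the depth of the ChIP libraries is not given in the peak lists.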
